A study of Mus musculus with 7 samples.

Results

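The E protein genes Tcf12, Tcf4 and Tcf3 and the inhibitor genes Id1, Id2, Id3 and Id4 were followed by acetylation of histone H3 at lysine 27 (H3K27ac), a mark of active promoters and enhancers, while NeuroD1 was induced in mouse embryonic stem cells. Peaks of the merged H3K27ac set were assigned to a gene when they overlapped its body or the 10 kb on either side of it (mm10 genome, GENCODE annotation). This gave 54 of the 66841 merged peaks, of which 34 lay at the 3 E protein genes and 20 at the 4 Id genes. The cells were A2Lox embryonic stem cells in which a murine NeuroD1 coding sequence with an N-terminal HA-tag stands under a doxycycline-inducible promoter, and all libraries carry this transgene. Whether the line is 1 clone is not given in the sources used here. Cells without doxycycline (0 h) were compared with cells kept for 12 h and 48 h in 500 ng per ml doxycycline, with 2 libraries, R1 and R2, at each time. H3K27ac was measured in bulk chromatin, so that more cells with acetylation at a site and more acetylation per cell cannot be told apart. The labels do not say that R1 and R2 came from separate cultures, and p-values then measure only the spread between these libraries.

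E proteins are the widely expressed class of basic helix-loop-helix (bHLH) transcription factors. They pair with tissue-restricted bHLH factors such as NeuroD1, and the pair binds the E-box, a short motif of the form CANNTG. Id proteins keep the helix-loop-helix that makes pairs but lack the basic region that touches DNA, so an E protein bound to an Id protein cannot bind an E-box. In the developing brain, Id proteins are known for holding progenitors back from differentiation, and their genes are textbook targets of bone morphogenetic protein (BMP) signalling.

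The regions at which H3K27ac moved most are shown first, since they are the sequence context of the changes described for Tcf12 and Tcf3. Each is the plus strand of mm10 over 300 bp at the centre of a peak that passed the test in a comparison, and E-boxes are in capitals. They were taken in the order of the largest log2 fold change, leaving out windows with a UTR, all windows at Tcf4 and the inner promoter of Tcf12. Of all merged peaks, 75.3% held an E-box in the same 300 bp, and of the 7 windows shown, 6 did.
Tcf12 intron chr9:71942117-71942416: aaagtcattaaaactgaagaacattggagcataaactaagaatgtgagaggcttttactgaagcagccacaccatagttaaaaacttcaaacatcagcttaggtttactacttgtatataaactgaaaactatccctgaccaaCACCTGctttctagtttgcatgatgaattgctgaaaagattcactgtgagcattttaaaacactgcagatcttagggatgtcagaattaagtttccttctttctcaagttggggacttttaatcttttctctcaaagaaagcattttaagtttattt
Tcf12 intron chr9:72065495-72065794: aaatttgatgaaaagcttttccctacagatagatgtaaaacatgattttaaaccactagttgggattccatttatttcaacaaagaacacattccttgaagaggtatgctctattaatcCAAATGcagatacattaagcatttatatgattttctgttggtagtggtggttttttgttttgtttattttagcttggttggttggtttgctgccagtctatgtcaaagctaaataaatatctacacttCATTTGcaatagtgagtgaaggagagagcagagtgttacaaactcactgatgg
Tcf12 intron chr9:71916343-71916642: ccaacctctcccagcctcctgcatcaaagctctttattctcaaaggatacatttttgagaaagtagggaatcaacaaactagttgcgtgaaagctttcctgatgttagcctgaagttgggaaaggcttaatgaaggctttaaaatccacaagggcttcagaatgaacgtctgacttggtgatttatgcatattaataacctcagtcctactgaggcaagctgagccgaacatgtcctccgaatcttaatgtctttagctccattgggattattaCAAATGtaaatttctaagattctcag
Tcf12 intron chr9:71899559-71899858: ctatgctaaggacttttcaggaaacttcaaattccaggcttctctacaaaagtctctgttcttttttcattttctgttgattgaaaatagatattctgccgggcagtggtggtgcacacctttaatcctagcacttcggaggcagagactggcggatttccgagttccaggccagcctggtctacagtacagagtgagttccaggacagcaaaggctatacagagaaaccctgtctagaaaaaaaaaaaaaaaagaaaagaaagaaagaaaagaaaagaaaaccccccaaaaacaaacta
Tcf3 intron chr10:80413004-80413303: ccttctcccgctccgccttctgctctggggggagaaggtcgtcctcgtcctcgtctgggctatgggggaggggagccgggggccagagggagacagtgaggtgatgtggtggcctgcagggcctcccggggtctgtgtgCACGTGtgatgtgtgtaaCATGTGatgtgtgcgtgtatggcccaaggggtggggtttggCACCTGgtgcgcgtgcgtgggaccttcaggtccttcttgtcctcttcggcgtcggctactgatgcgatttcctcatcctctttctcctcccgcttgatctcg
Tcf12 intron chr9:72066778-72067077: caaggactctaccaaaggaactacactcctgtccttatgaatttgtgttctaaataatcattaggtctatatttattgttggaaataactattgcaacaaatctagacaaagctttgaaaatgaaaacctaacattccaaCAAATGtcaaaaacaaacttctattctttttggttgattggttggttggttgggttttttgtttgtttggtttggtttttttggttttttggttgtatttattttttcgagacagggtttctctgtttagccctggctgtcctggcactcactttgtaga
Tcf3 exon chr10:80410253-80410552: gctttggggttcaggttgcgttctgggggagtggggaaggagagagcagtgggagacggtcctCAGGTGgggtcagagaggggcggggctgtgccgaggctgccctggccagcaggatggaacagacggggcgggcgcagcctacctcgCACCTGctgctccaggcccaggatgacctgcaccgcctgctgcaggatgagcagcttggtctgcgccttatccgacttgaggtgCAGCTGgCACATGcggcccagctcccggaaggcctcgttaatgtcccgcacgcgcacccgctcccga

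Reads in merged peaks ranged from 6283103 to 8112895 per library, and counts are given scaled to the average library, that is, multiplied by the ratio of the mean total to the total of their own library. The 48 h libraries stood further apart than the other pairs. Their chi-square per degree of freedom over all peaks was 5.54, against 1.79 at 0 h and 1.42 at 12 h. At 48 h, R1 exceeded R2 in 72.3% of all promoter peaks and in the promoter peaks of all 7 genes. The promoter peak of Neurod1, whose coding sequence the transgene carries, held 70 and 60 (0 h), 359 and 398 (12 h) and 168 and 312 (48 h) reads. It rose at 12 h (log2 fold change of 2.47 ± 0.22, adjusted p = 8.47e-08) and at 48 h relative to 0 h (1.75 ± 0.23, adjusted p = 6.57e-06). Whether any reads of the transgene fall in this peak was not tested. All 8 embryonic stem cell markers had a promoter peak, with a summed scaled count of 17537 and 17824 at 0 h. At 12 h this sum was 19593 and 19708, and at 48 h it was 11823 and 14906, with 4 of the 8 peaks called lost relative to 0 h by edgeR and none by DESeq2. Of all promoter peaks, 4.87% gained and 2.87% lost at 48 h relative to 0 h. Of 8 neuron markers, 6 had a promoter peak (all but Dcx and Snap25), with a median log2 fold change of -0.04 at 48 h relative to 0 h. Of these Tubb3, a neuronal tubulin, gained in that comparison (log2 fold change of 1.25 ± 0.22, adjusted p = 0.000346), and the other 5 did not pass (from -0.48 for Elavl3 to 0.19 for Elavl4). At 12 h Elavl3 (-1.78) and Stmn3 (-1.52) had lost, where 17.0% of all promoter peaks lost, and DESeq2 called 1 loss among the 6. Between 12 h and 48 h, 3 of the 6 gained, where 27.4% of all promoter peaks gained. Of the 6 neural progenitor markers, Fabp7 (2.56) and Dll1 (1.06) gained at 48 h relative to 0 h, of which DESeq2 called 1, and the other 4 did not pass (from -0.41 for Sox1 to 0.0322 for Hes5). Promoter peaks were found for 2 of 8 fibroblast markers (Col1a1 and Lum), with sums from 13.9 to 40.3 over the libraries, and for none of 4 endoderm markers. The part of these shifts in the values below was not tested.

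A peak was called gained or lost when the adjusted p of edgeR's quasi-likelihood test (Benjamini-Hochberg adjustment over all 66841 peaks) was under 0.05. At 48 h relative to 0 h, 15 of the 54 peaks gained H3K27ac and 1 lost it, which is 27.8% and 1.85% of them. Values written with ± are log2 fold changes with their SE. Over all merged peaks 8.56% gained and 5.45% lost. The E protein genes held 9 of the gains among their 34 peaks and the Id genes held 6 among 20. The median log2 fold change was 0.53 for the 54 peaks and -0.04 for all peaks. At 12 h, 6 peaks had gained and 3 had lost, or 11.1% and 5.56%, beside 9.93% and 6.03% of all peaks, so the share of gains at 12 h lay near that of the genome. Between 12 h and 48 h, 13 peaks gained and 1 lost (24.1% and 1.85%), beside 10.7% and 8.43%. In total 27 of the 54 peaks passed the test in at least 1 comparison and 27 did not. The comparisons of 12 h and 48 h with 0 h share the 0 h libraries. Without the 48 h library R1, 12 of the 15 gains at 48 h were still called, and without R2, 14 were. Without the 0 h library R1 or R2, 6 and 7 were. The gains at 48 h relative to 0 h that were called under all 12 alternatives (6 other ways of fitting and the 6 fits without 1 library) were 5, namely the inner promoter and an intronic peak of Tcf12, an intronic peak of Tcf4 and the promoters of Id1 and Id2. Of the 9 calls at 12 h, none was made without the 0 h library R2, 1 without the 12 h library R2, 2 without the 0 h library R1 and 5 without the 12 h library R1. Of the 14 calls between 12 h and 48 h, 3 and 4 were made without the 12 h library R1 or R2. DESeq2 called 8 of the 15, with no peak lost (edgeR gave 4 losses at an unadjusted p under 0.05). At 12 h DESeq2 called 3 gains and no loss (3 losses at an unadjusted p under 0.05 in edgeR), where gains made up 78.6% of its calls over all peaks against 62.2% in the edgeR fit. At 48 h this share was 78.6% against 61.1%. A region enters the merged set when it was called a peak in any library, so peaks that are low at 0 h belong to it by construction.

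**Figure D1:**
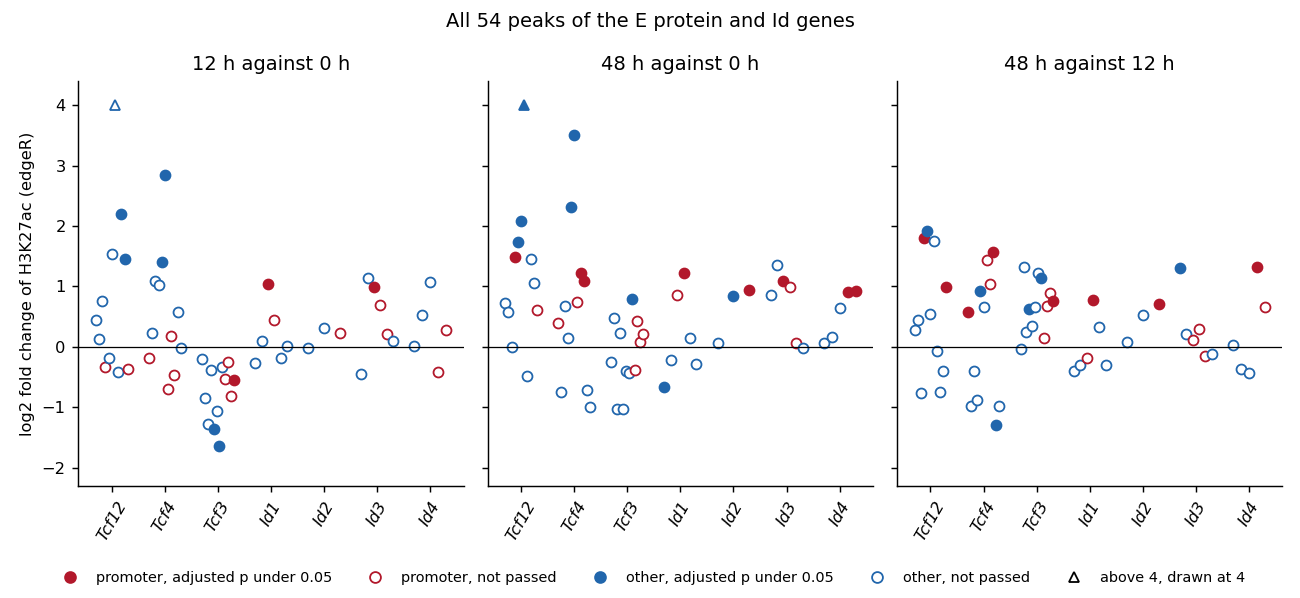
Log2 fold change of H3K27ac (y axis, edgeR) of each of the 54 peaks, grouped by gene on the x axis, in the 3 comparisons. Red marks promoter peaks of the gene itself and blue marks the others, filled symbols passed the test, and a Tcf12 peak without reads at 0 h is drawn at 4 as a triangle. At 48 h the gained peaks are spread over all 7 genes, while at 12 h the peaks of Tcf3 all lie below 0.

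Promoter peaks overlap the 2 kb on either side of a start site (TSS) of one of the gene's protein-coding transcripts, and they made up 18 of the 54. Of these, 8 gained H3K27ac at 48 h relative to 0 h, and 4.87% of all promoter peaks gained while 2.87% lost. Of the other 36, 7 gained and 1 lost, where 9.76% of all peaks away from promoters gained and 6.29% lost. At 12 h, 2 promoter peaks gained and 1 lost, beside 2.40% and 17.0% of all promoter peaks. Away from promoters 4 gained and 2 lost at 12 h, beside 12.4% and 2.45%. Between 12 h and 48 h, 8 promoter peaks gained, beside 27.4% of all promoter peaks with 2.61% lost. In that comparison 5 of the other peaks gained and 1 lost, beside 5.29% and 10.3%. The sets differ, since the other peaks lie away from start sites of their own gene only. They include peaks at the TSS of Uqcr11 and of Mbd3, neighbours of Tcf3, which count as promoter peaks in the genome-wide shares. The one at Uqcr11 is among the 5 gains. Promoter peaks of the whole genome had a median log2 fold change of -0.38 at 12 h relative to 0 h and 0.44 between 12 h and 48 h, and a promoter that dips at 12 h and returns at 48 h therefore follows the genome-wide course.

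Tcf12 encodes the E protein HEB and spans chr9:71842688-72111871 on the minus strand. Its H3K27ac rose at 48 h at an inner promoter peak and in neighbouring introns. At 12 h it rose at a pair of intronic peaks near the 5′ end. Of its 11 peaks, 4 gained at 48 h relative to 0 h, 2 gained at 12 h relative to 0 h, and 3 gained between 12 h and 48 h. The promoter peak at the 5′ end (chr9:72110510-72112363) had scaled counts of 192 and 197 (0 h), 148 and 153 (12 h) and 366 and 233 (48 h). Both 48 h libraries lay above all earlier ones and both 12 h libraries below the 0 h ones. The rise from 12 h to 48 h passed the test (log2 fold change of 0.99 ± 0.21 (SE), adjusted p = 0.00314), and the difference between 48 h and 0 h did not (0.62 ± 0.21, adjusted p = 0.0526). The latter was called with TMM factors (0.70, adjusted p = 0.034), with the GC offset (0.71, adjusted p = 0.000514) and without the 48 h library R2 (0.91, adjusted p = 9.89e-07), and was 0.26 without R1 (adjusted p = 0.311). The 12 h value (-0.37 ± 0.22, adjusted p = 0.244) lay near the median of all promoters and changed sign with an offset for GC content (0.06).

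The inner promoter peak of Tcf12 (chr9:71896966-71899097) lies 213.8 kb downstream of the gene start. It counts as a promoter peak only because it overlaps the 2 kb around the TSS of a shorter annotated transcript. The nearest TSS lies outside the peak itself, and whether the peak acts as a promoter was not tested. Its scaled counts were 60.5 and 42.5 (0 h), 41.8 and 40.5 (12 h) and 139.9 and 149 (48 h). The 48 h libraries were separate from the other 4 and close to each other. It rose 2.80-fold from 0 h to 48 h (log2 fold change of 1.48 ± 0.25 (SE), adjusted p = 0.00025) and 3.51-fold from 12 h to 48 h (1.81 ± 0.26, adjusted p = 9.2e-05), and at 12 h it had not passed the test (-0.33 ± 0.28, adjusted p = 0.442). Its reads amounted to 31.6% and 21.5% (0 h), 28.3% and 26.5% (12 h) and 38.2% and 63.8% (48 h) of those at the 5′ promoter peak in the same library, a ratio that no scaling of libraries enters. Other differences between libraries can still enter it, which was not tested. The inner and 5′ peaks had a GC content of 38.4% and 67.5%. At 48 h R1 exceeded R2 in 72.3% of all promoter peaks and in 37.3% of all peaks away from promoters. The adjacent peak at chr9:71899491-71899925 had 5 and 8 (0 h), 6 and 6 (12 h) and 29 and 17 (48 h) reads. It gained as well, by a log2 fold change of 1.73 ± 0.53, adjusted p = 0.0295 at 48 h relative to 0 h and of 1.92 ± 0.54, adjusted p = 0.0154 relative to 12 h. DESeq2 called neither, and without the 48 h library R1 the value relative to 0 h was 1.09.

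Further intronic peaks of Tcf12 moved from near 0 reads. At chr9:71942123-71942409 the libraries held 0 and 0 (0 h), 6 and 2 (12 h) and 16 and 12 (48 h) reads, which is at least 4.48-fold higher at 48 h than a floor of 3 reads per library at 0 h. The edgeR test (adjusted p = 0.00165) belongs to its own log2 fold change of 6.80, taken from 0 reads, and not to this floor. At chr9:71916290-71916694 they held 7 and 1 (0 h), 11 and 14 (12 h) and 10 and 28 (48 h) reads, with a log2 fold change of 2.08 ± 0.63, adjusted p = 0.0278, for 48 h relative to 0 h, a call that DESeq2 did not make. These are shallow peaks in which a handful of reads decide the value. A pair of peaks 44.9 and 46.2 kb into the gene gained at 12 h. The larger one (chr9:72066388-72067467) had scaled counts of 15.4 and 24.4 (0 h), 45.0 and 63.5 (12 h) and 27.8 and 53.3 (48 h), with a log2 fold change at 12 h of 1.45 ± 0.36, adjusted p = 0.00829, and at 48 h relative to 0 h of 1.05 ± 0.37, adjusted p = 0.0604. The smaller one (chr9:72065462-72065827) held 7 and 0 (0 h), 11 and 24 (12 h) and 9 and 12 (48 h) reads and gained at 12 h (2.20 ± 0.70, adjusted p = 0.0348). That call was not made with the GC offset, and DESeq2 gave no adjusted p for this peak at 12 h. In both, the 12 h and 48 h libraries all exceeded the 0 h ones, and neither passed the test at 48 h.

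The other 4 peaks of Tcf12 passed in no comparison, and all lie in introns. The strongest of them (chr9:71970660-71972219) had mean scaled counts of 158, 118 and 113 at 0 h, 12 h and 48 h, with the 12 h and 48 h libraries all below the 0 h ones. The peaks at chr9:71878924-71879603, chr9:71880032-71880401 and chr9:71889838-71890150, towards the 3′ end, had means of 19.3, 26.4 and 32.1, then 9.85, 10.9 and 14.6, and 7.27, 12.6 and 7.45 at the 3 times.

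**Figure D2:**
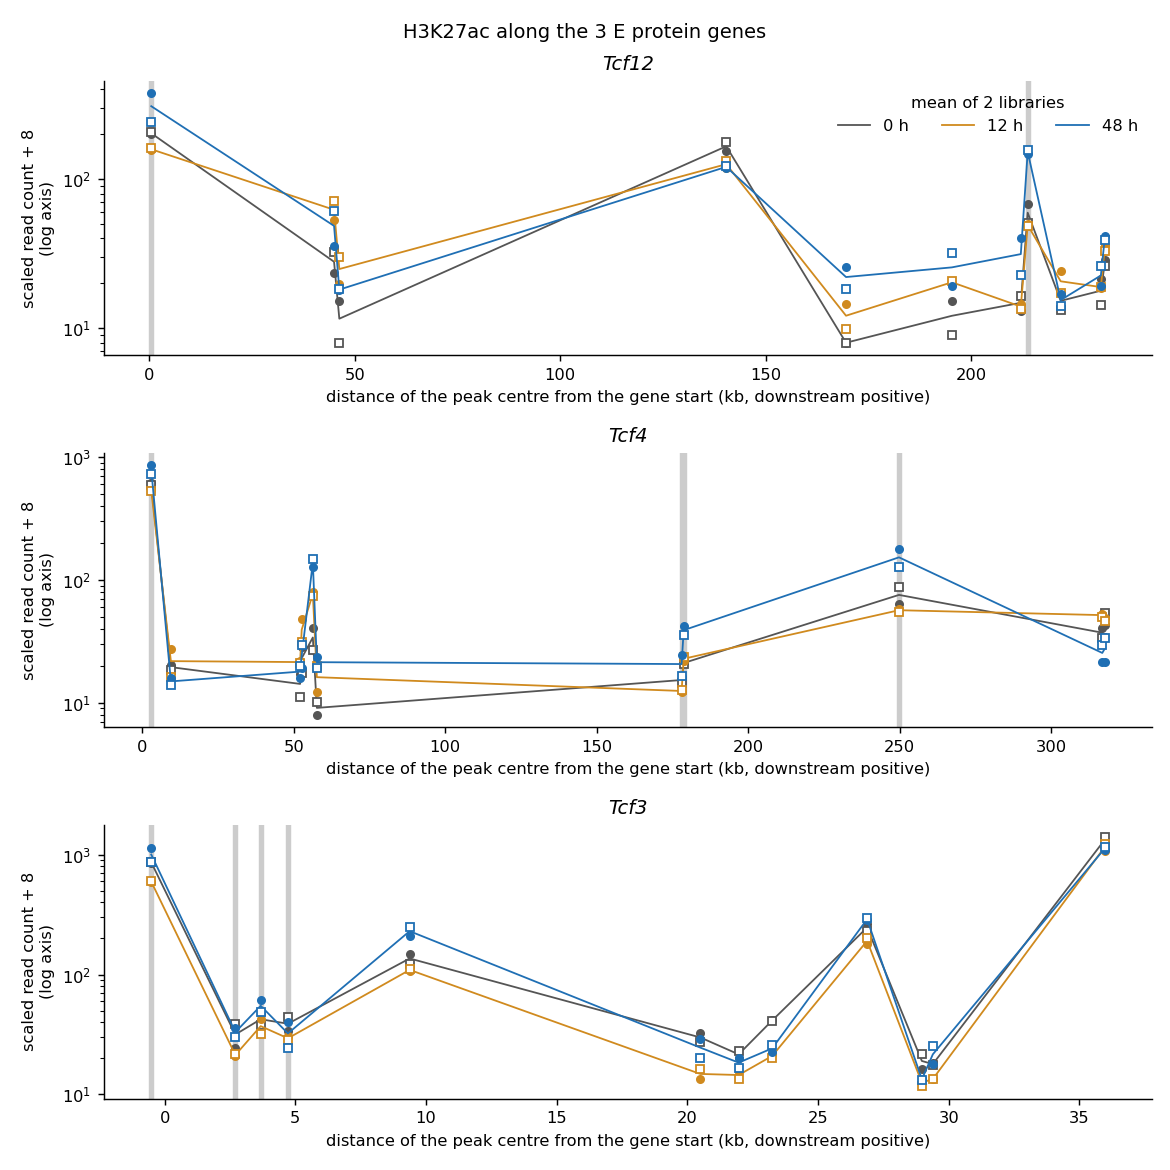
Scaled H3K27ac read count plus 8 (log y axis) of every peak of Tcf12, Tcf4 and Tcf3 against the distance of the peak centre from the gene start (x axis, kb). Colours are the times, filled circles are R1 and open squares R2, lines join the means of the 2 libraries and carry no value between peaks, and grey bars mark the gene's promoter peaks. The 48 h values stand above the others at the inner promoter peaks of Tcf12 and Tcf4. They also do so at an intronic peak of Tcf4 near 56.3 kb.

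Tcf4, whose E protein (also called E2-2) is known for its part in neural development, spans chr18:69343356-69689079 on the plus strand and has many annotated start sites. H3K27ac rose most at an intronic element, already at 12 h and again at 48 h, and at inner promoters at 48 h. Of its 11 peaks, 4 gained at 48 h relative to 0 h and 2 of these had gained at 12 h, 3 gained between 12 h and 48 h, and 1 lost between 12 h and 48 h. The intronic peak 56.3 kb from the gene start (chr18:69398685-69400588) had scaled counts of 32.8 and 19.1 (0 h), 71.8 and 66.2 (12 h) and 119.9 and 141 (48 h). The 3 times did not overlap. It rose 2.64-fold by 12 h (log2 fold change of 1.40 ± 0.30 (SE), adjusted p = 0.00286) and 5.00-fold by 48 h (2.32 ± 0.29, adjusted p = 4.38e-06), and the step from 12 h to 48 h passed too (0.92 ± 0.25, adjusted p = 0.0143). No other of the 54 peaks was gained in all 3 comparisons. A small peak beside it (chr18:69400819-69401118) held 0 and 2 (0 h), 4 and 13 (12 h) and 14 and 13 (48 h) reads. Relative to its 2 reads at 0 h, the read ratio was 8.07 at 12 h (95% counting interval from 1.91 to 72.0) and 12.5 at 48 h (3.15 to 108.8). The edgeR log2 fold changes were 2.85 and 3.51, with adjusted p = 0.048 and 0.0105. DESeq2 called neither and gave no adjusted p at 12 h, and with the GC offset the 12 h call was lost.

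The promoter peak of Tcf4 at the 5′ end (chr18:69343598-69349022) had scaled counts of 609.6 and 584 (0 h), 529 and 526 (12 h) and 852 and 715 (48 h). Its 48 h libraries exceeded all others, and the rise passed the test relative to 12 h (log2 fold change of 0.57 ± 0.16 (SE), adjusted p = 0.015) and not relative to 0 h (0.39 ± 0.16, adjusted p = 0.104). The latter was called with the GC offset (0.40, adjusted p = 0.0245) and without the 48 h library R2 (0.51, adjusted p = 0.000321), and was 0.26 without R1 (adjusted p = 0.116). The rise from 12 h lay close to the median of all promoters. The inner promoter 249.7 kb into the gene (chr18:69592203-69593974) had scaled counts of 55.4 and 79.6 (0 h), 50.4 and 46.9 (12 h) and 171 and 119 (48 h), with both 48 h libraries above the rest. It rose 2.13-fold from 0 h (1.09 ± 0.26, adjusted p = 0.00567) and 2.96-fold from 12 h (1.57 ± 0.27, adjusted p = 0.000454). Within a library its reads were 9.09% and 13.6% (0 h), 9.53% and 8.92% (12 h) and 20.1% and 16.6% (48 h) of those at the 5′ promoter peak. A second inner promoter holds a pair of small peaks. The one at chr18:69521718-69522365 had scaled counts of 13.3 and 12.7 (0 h), 13.9 and 15.6 (12 h) and 34.4 and 27.5 (48 h) and gained at 48 h relative to 0 h (1.23 ± 0.38, adjusted p = 0.0328), while the step from 12 h just missed the threshold (adjusted p = 0.0501). The gain was called under 5 of the 12 alternatives. The one at chr18:69521208-69521483 passed in no comparison, with means of 7.29, 4.44 and 12.6 at 0 h, 12 h and 48 h.

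A pair of intronic peaks in the 3′ part of Tcf4 went the other way after 12 h. At chr18:69659860-69660523 the scaled counts were 32.8 and 25.5 (0 h), 45.0 and 42.3 (12 h) and 13.3 and 21.5 (48 h), and H3K27ac fell between 12 h and 48 h (-1.29 ± 0.34, adjusted p = 0.0115), with no call relative to 0 h (-0.71 ± 0.36, adjusted p = 0.209). Its neighbour (chr18:69660592-69661434), with scaled counts of 34.9 and 45.6 (0 h), 40.7 and 38.6 (12 h) and 13.3 and 25.8 (48 h), missed the threshold in both comparisons (adjusted p = 0.0585 relative to 0 h and 0.0508 relative to 12 h). At both peaks the 48 h libraries were the lowest of the 6. The last 3 peaks passed nowhere: chr18:69352608-69352966 with means of 11.5, 13.8 and 6.90 at the 3 times, chr18:69395278-69395604 with 6.21, 13.4 and 9.91, and chr18:69395668-69396262 with 15.0, 31.3 and 16.3.

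Tcf3, which encodes the E proteins E12 and E47, spans chr10:80409514-80433647 on the minus strand. At 12 h every one of its 12 peaks had a negative log2 fold change (10 of 12 with an offset for GC content), 3 of them past the test, and at 48 h relative to 0 h only an intronic peak gained. Its promoter peak (chr10:80431420-80436903) had scaled counts of 848 and 861 (0 h), 580.1 and 593 (12 h) and 1124 and 863 (48 h). Both 12 h libraries lay below all others, and the fall at 12 h (log2 fold change of -0.54 ± 0.16 (SE), adjusted p = 0.0225) and the rise after it (0.76 ± 0.16, adjusted p = 0.0024) both passed. The medians over all promoters were -0.38 and 0.44 in these comparisons, and the fall was not called with DESeq2, with TMM factors or with an offset for GC content. At 48 h relative to 0 h the difference was 0.22 ± 0.16, adjusted p = 0.405.

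The intronic peak of Tcf3 at chr10:80423197-80425352 had scaled counts of 142 and 115 (0 h), 98.6 and 104 (12 h) and 203 and 241 (48 h), and its 48 h libraries stood above the other 4. It gained relative to 0 h (0.79 ± 0.21, adjusted p = 0.0137) and relative to 12 h (1.13 ± 0.22, adjusted p = 0.0012). A pair of GC-rich peaks in the 3′ part of the gene lost H3K27ac at 12 h. At chr10:80410031-80410774, on an exon, the scaled counts were 33.9 and 32.9 (0 h), 13.9 and 12.0 (12 h) and 14.4 and 18.1 (48 h), with a log2 fold change of -1.36 ± 0.38, adjusted p = 0.0158. At chr10:80412976-80413330, in an intron, they were 24.6 and 19.1 (0 h), 5.36 and 8.28 (12 h) and 21.1 and 12.0 (48 h), with -1.65 ± 0.49, adjusted p = 0.0239. The GC content of these peaks was 64.4% and 63.4%, and over all peaks GC content and the 12 h log2 fold change had Pearson's r = -0.495 (66783 peaks, which are not independent). Neither loss was called with the GC offset.

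Of the 12 Tcf3 peaks, 7 also fall within 10 kb of a neighbouring gene. The peak at chr10:80405743-80407798 lies on the TSS of Uqcr11, a subunit of respiratory complex III, and gained between 12 h and 48 h (0.62 ± 0.19, adjusted p = 0.0254) from scaled counts of 256 and 222 (0 h), 172 and 194 (12 h) and 278 and 285 (48 h). The highest peak (chr10:80393968-80401387) is nearest to the TSS of Mbd3, a subunit of the NuRD complex, and overlaps the 10 kb window of Mex3d as well. Its means of 1324, 1151 and 1118 at the 3 times passed in no comparison, and it made up 48.6% of the summed count of Tcf3 at 0 h. The remaining 6 peaks passed nowhere. Those at chr10:80404088-80404425 and chr10:80404542-80404811, nearest to the TSS of Uqcr11, had means of 9.91, 5.44 and 13.6 and of 11.0, 4.52 and 5.36. The intronic peak at chr10:80411524-80411848 had means of 13.6, 6.51 and 10.4. The peaks at chr10:80428595-80429270, chr10:80429473-80430476 and chr10:80430711-80431176, beside inner start sites, had means of 30.9, 21.4 and 24.3, then 34.4, 29.1 and 46.9, and 23.6, 13.3 and 25.1.

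Among the inhibitors, the promoter peaks of Id1, Id2 and Id4 gained H3K27ac at 48 h, and that of Id3 did not pass. Id2 (chr12:25093799-25097140) had the strongest promoter of the 4. Its promoter peak (chr12:25094153-25102172) had scaled counts of 674 and 653 (0 h), 741 and 809 (12 h) and 1509 and 1040.4 (48 h). Each time exceeded the one before without overlap, and R1 stood well above R2 at 48 h. The gain relative to 0 h was 1.92-fold (log2 fold change of 0.94 ± 0.17 (SE), adjusted p = 0.000375) and relative to 12 h 1.64-fold (0.72 ± 0.17, adjusted p = 0.00499), and the 12 h difference did not pass (0.22 ± 0.17, adjusted p = 0.365). Just downstream of the gene, the peak at chr12:25092400-25093846 gained at 48 h (0.84 ± 0.24, adjusted p = 0.0181) from scaled counts of 81.1 and 66.9 (0 h), 94.4 and 90.1 (12 h) and 138 and 128 (48 h). The third peak (chr12:25083063-25084750) stayed between 102 and 115 in all libraries and passed nowhere.

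Id1 (chr2:152736251-152737410) gained at its promoter and lost at a distal peak. The promoter peak (chr2:152736194-152738906) had scaled counts of 123 and 153 (0 h), 176 and 199.6 (12 h) and 403 and 244 (48 h), again without overlap between times. It rose 2.33-fold at 48 h relative to 0 h (log2 fold change of 1.22 ± 0.23 (SE), adjusted p = 0.000586) and 1.71-fold relative to 12 h (0.78 ± 0.22, adjusted p = 0.017). Without the 48 h library R1 the second of these was no longer called. The 12 h difference from 0 h did not pass (0.45 ± 0.23, adjusted p = 0.186), and was called with the GC offset (0.58, adjusted p = 0.023). The upstream peak that also lies within 2 kb of the TSS (chr2:152734452-152736062) had scaled counts of 41.0 and 63.7 (0 h), 82.6 and 132 (12 h) and 111 and 79.1 (48 h) and gained at 12 h (1.04 ± 0.29, adjusted p = 0.017), with 0.85 ± 0.29, adjusted p = 0.0531 at 48 h. Its reads were 33.3% and 41.7% (0 h), 47.0% and 65.9% (12 h) and 27.5% and 32.4% (48 h) of those at the promoter peak, highest in the 12 h libraries. The broad peak centred 8.4 kb upstream (chr2:152725344-152730407) had scaled counts of 481 and 559 (0 h), 415 and 449 (12 h) and 349 and 311 (48 h), lowest in the 48 h libraries. It was the only one of the 54 peaks called lost at 48 h relative to 0 h (-0.66 ± 0.17, adjusted p = 0.0109), and DESeq2 did not call it. The other 3 peaks of Id1, at chr2:152730520-152730765, chr2:152739144-152740789 and chr2:152741276-152742604, passed nowhere, with log2 fold changes from -0.29 to 0.14 at 48 h relative to 0 h.

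At Id3 (chr4:136143497-136145755) upstream peaks gained and the peak on the gene did not pass. The peak with the most reads at its promoter (chr4:136143865-136145173) had scaled counts of 61.6 and 63.7 (0 h), 62.2 and 82.8 (12 h) and 79.9 and 52.5 (48 h), which overlap between all times (0.07 ± 0.28, adjusted p = 0.913 at 48 h relative to 0 h). Upstream, the peak at chr4:136140463-136141498 had scaled counts of 31.8 and 31.8 (0 h), 49.3 and 76.4 (12 h) and 79.9 and 57.6 (48 h) and gained at 12 h (0.99 ± 0.31, adjusted p = 0.0307) and at 48 h relative to 0 h (1.10 ± 0.31, adjusted p = 0.0171). DESeq2 called neither gain of this peak. Its reads were 51.7% and 50.0% (0 h), 79.3% and 92.2% (12 h) and 100.0% and 109.8% (48 h) of those at the promoter peak, and the 3 times did not overlap. The peak centred 8.3 kb upstream (chr4:136134420-136136001) had scaled counts of 75.9 and 103 (0 h), 51.5 and 79.1 (12 h) and 228 and 99.7 (48 h), with a gain between 12 h and 48 h (1.30 ± 0.31, adjusted p = 0.00599) that was called neither without the 48 h library R1 nor with DESeq2. The peaks at chr4:136139927-136140220, chr4:136143043-136143638 and chr4:136147115-136148920 passed nowhere, and at the first of these and the second the 12 h and 48 h libraries all exceeded the 0 h ones.

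Id4 (chr13:48261228-48266026) gained at both of its promoter peaks at 48 h. The larger one (chr13:48261036-48262487) had scaled counts of 52.3 and 67.9 (0 h), 90.1 and 56.1 (12 h) and 154 and 77.4 (48 h), and its 48 h libraries exceeded those of 0 h and not both of those of 12 h (log2 fold change of 0.93 ± 0.31 (SE), adjusted p = 0.0429). The one just upstream (chr13:48260288-48260889) had scaled counts of 31.8 and 27.6 (0 h), 23.6 and 21.2 (12 h) and 54.4 and 57.6 (48 h), with the 48 h libraries clearly apart. It gained relative to 0 h (0.91 ± 0.30, adjusted p = 0.0409) and to 12 h (1.32 ± 0.31, adjusted p = 0.00507). Both calls relative to 0 h were lost with DESeq2 and with only the 4 libraries compared, and of the 12 alternatives 5 kept that of the larger peak and 6 that of the other. The 3 peaks further upstream, at chr13:48251615-48252837, chr13:48252895-48253802 and chr13:48253842-48254113, passed nowhere.

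**Figure D3:**
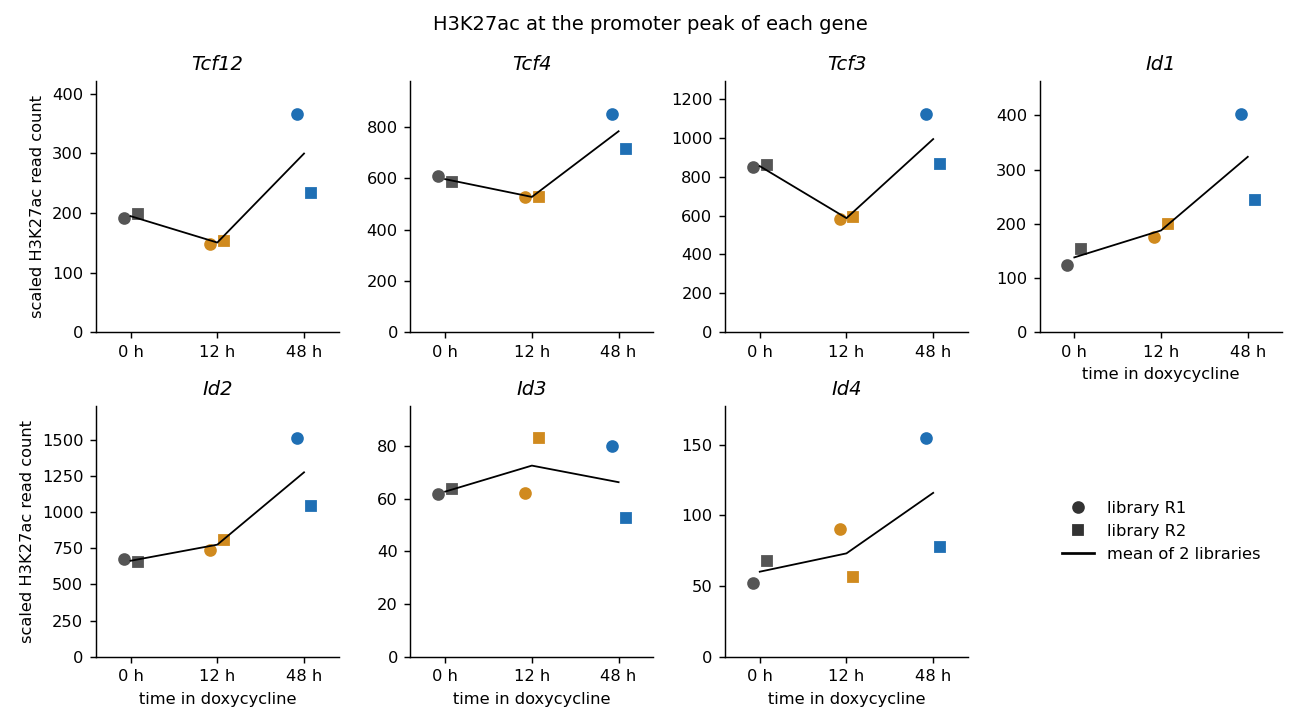
Scaled H3K27ac read count (y axis, from 0) of the promoter peak of each of the 7 genes at 0 h, 12 h and 48 h in doxycycline (x axis). Circles are library R1, squares R2, and lines join the means of the 2 libraries. Tcf12 (not with an offset for GC content), Tcf4 and Tcf3 dip at 12 h before they rise. The dip passed the test for Tcf3 alone, and the median log2 fold change of all promoter peaks at 12 h was -0.38. All genes but Id3 have their highest mean at 48 h. Id1 and Id2 did not pass at 12 h relative to 0 h, and at 48 h R1 lies above R2 in all 7 panels.

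**Figure D4:**
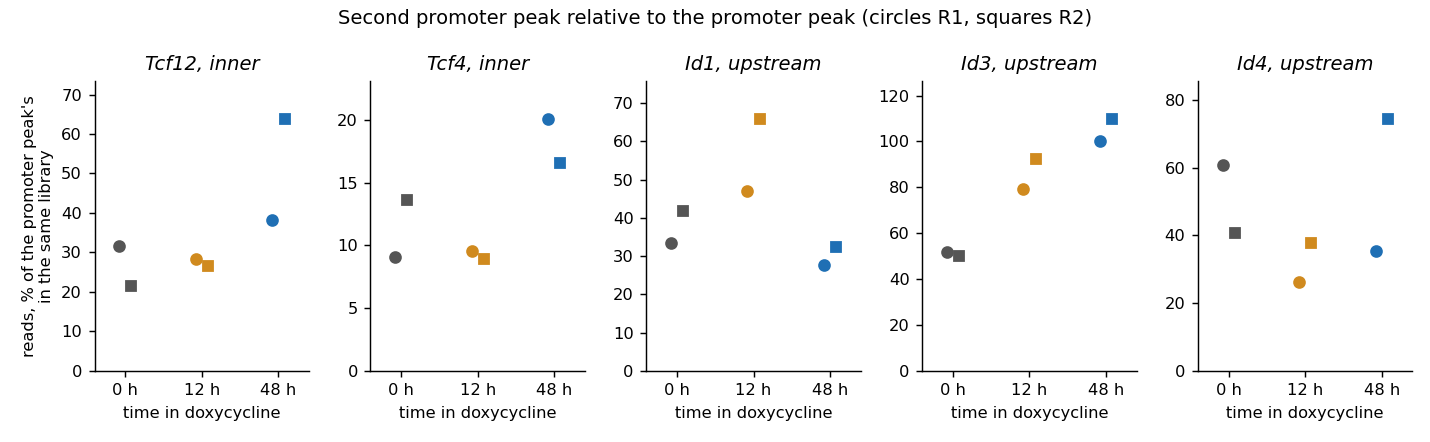
Reads of a second promoter peak as a percentage of those at the promoter peak of the same gene in the same library (y axis, from 0), at 0 h, 12 h and 48 h (x axis). The inner promoter peaks of Tcf12 and Tcf4 reach their highest shares at 48 h. The upstream peak of Id1 reaches its highest share at 12 h, and that of Id3 is above its 0 h share at both later times. The upstream peak of Id4 is lower in both 12 h libraries than in both 0 h ones, while its 48 h libraries lie at 35.3% and 74.4%.

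Per kb of peak, the promoter peaks at 0 h carried mean scaled counts per kb of 156 for Tcf3, 110.0 for Tcf4, 105 for Tcf12, 82.7 for Id2, 50.9 for Id1, 47.8 for Id3 and 41.4 for Id4. These levels depend on the merged peak width, from 1309 bp for Id3 to 8020 bp for Id2, and are not corrected by Input or for GC content. At 48 h the same levels were 181 for Tcf3, 162 for Tcf12, 159 for Id2, 144 for Tcf4, 119 for Id1, 79.8 for Id4 and 50.6 for Id3. By this measure the 3 E protein promoter peaks were the densest at 0 h, and at 48 h Id2 had come among them. Neighbours in this order were not compared by a test.

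Summed over all of its peaks, a gene gave 1 value per library, tested among the sums of 16175 protein-coding genes. At 48 h relative to 0 h, Id2, Tcf12 and Tcf4 gained, with 6.45% of all genes gaining, 5.35% losing and a median log2 fold change of 0.03. The sums of Tcf12 were 477 and 472 (0 h), 436 and 469 (12 h) and 769 and 664 (48 h) (0.59 ± 0.12, adjusted p = 0.00994). Those of Tcf4 were 829 and 798 (0 h), 832 and 797 (12 h) and 1262 and 1109 (48 h) (0.54 ± 0.10, adjusted p = 0.00701). Those of Id2 were 870.2 and 822 (0 h), 945 and 1004 (12 h) and 1759.8 and 1283 (48 h) (0.84 ± 0.14, adjusted p = 0.00296). In each of the 3 genes both 48 h libraries exceeded all others, and all 3 were also called with DESeq2, TMM factors and the GC offset. Without the 0 h library R1 the calls of Tcf12 and Tcf4 were lost (adjusted p = 0.0982 and 0.0713), and without R2 those of all 3 genes (adjusted p from 0.097 to 0.16), with log2 fold changes from 0.515 to 0.80. Id4 missed the threshold (0.47 ± 0.14, adjusted p = 0.052), and so did Id3 (0.52 ± 0.25, adjusted p = 0.215). For Id1, where the promoter gained and the distal peak lost, the sums of 864 and 1036 (0 h), 878 and 1028 (12 h) and 1138 and 824 (48 h) gave 0.04 ± 0.16, adjusted p = 0.904. For Tcf3, with sums of 2670.2 and 2777 (0 h), 2029.7 and 2214 (12 h) and 2865 and 2683 (48 h), the value was 0.03 ± 0.09, adjusted p = 0.902. The peak nearest to the TSS of Mbd3 made up 48.6% of the Tcf3 sum at 0 h and had -0.24 in this comparison (not called), so the sum is in large part that of a neighbour.

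At 12 h the gene sums depend on the scaling. The median over all genes was -0.29 in the edgeR fit and -0.01 with DESeq2's size factors, and gains made up 19.1% of the edgeR calls, 39.7% with TMM factors and 84.2% with DESeq2. In the edgeR fit 7.13% of genes gained and 30.2% lost, and of the 7 genes Tcf3 alone passed, with a fall (-0.36 ± 0.09, adjusted p = 0.0162) that lay close to the median and was not called with DESeq2. Between 12 h and 48 h, 38.2% gained and 7.73% lost around a median of 0.32, and gains made up 83.2% of the calls against 30.5% with DESeq2. Tcf12 (0.66 ± 0.12, adjusted p = 0.00519), Id2 (0.64 ± 0.14, adjusted p = 0.00698), Tcf4 (0.54 ± 0.10, adjusted p = 0.00551) and Tcf3 (0.39 ± 0.09, adjusted p = 0.00964) passed in the edgeR fit, and none of them passed with DESeq2. At 48 h relative to 0 h, gains made up 54.7% of the calls and 70.2% with TMM factors.

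The genes whose summed peaks had a course most like each member's over the 6 libraries, by Pearson's r on log2 scaled counts among genes with at least 100 reads, were named as a description. They were Zc3h12c (r = 0.998) and Mpi (r = 0.998) for Tcf12, Ezh1 (r = 0.999) and Tpcn1 (r = 0.998) for Tcf4 and Cyp51 (r = 0.998) and Ddx21 (r = 0.998) for Tcf3. For the inhibitors they were Slc27a3 (r = 0.954) and Inpp5f (r = 0.931) for Id1, Sp8 (r = 0.996) and Pip4k2a (r = 0.995) for Id2, B230219D22Rik (r = 0.973) and Atp1a4 (r = 0.969) for Id3 and Sh3kbp1 (r = 0.994) and Pagr1b (r = 0.993) for Id4. In all, 12716 genes were compared.

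E-boxes were counted on mm10 within 250 bp of the peak centre. At least 1 E-box (CANNTG, which reads the same on both strands) lay in 47 of the 54 peaks, or 87.0%, against 89.2% of all peaks. The form CAGATG, read on both strands, lay in 12 of the 54 (22.2%, against 29.3%), and CAGCTG, its own reverse complement, in 12 (22.2%, against 25.2%). Both forms are also E-boxes of the first kind. Among the 15 peaks that gained at 48 h relative to 0 h, 4 held CAGATG (26.7%), where 42.3% of all gained peaks did. These shares were not compared by a test. In the printed windows, those of Tcf12 held 0 to 2 E-boxes each, and the 2 of Tcf3, from peaks that lost H3K27ac at 12 h, held 3 and 4. Within 250 bp of the centre, a wider window than the printed one, these 2 Tcf3 peaks held 5 and 6. In that wider window the Tcf4 intronic peak that gained at both times held 4 E-boxes, 1 of them CAGATG. The gained Tcf3 intronic peak held 7 there, of which 2 were CAGATG. The gained intronic peak beside the inner promoter of Tcf12 held none.

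The tissue-restricted partners of E proteins were read at their promoter peaks. Of 26 class II bHLH genes, 10 had a promoter peak, and 5 of these gained at 48 h relative to 0 h, where 4.87% of all promoter peaks gained. The median log2 fold change was 0.82 over the 10 and 0.06 over all promoter peaks. In reads per library, Neurod4, a neuronal bHLH gene, had 30 and 17 (0 h), 44 and 60 (12 h) and 135 and 218 (48 h) (2.78 ± 0.29, adjusted p = 3.78e-07 at 48 h relative to 0 h). Nhlh1 had 18 and 12 (0 h), 34 and 53 (12 h) and 107 and 80 (48 h) (2.56 ± 0.35, adjusted p = 1.45e-05), and Nhlh2 had 19 and 21 (0 h), 40 and 44 (12 h) and 107 and 58 (48 h) (1.98 ± 0.36, adjusted p = 0.000512). All 3 rose further between 12 h and 48 h. Twist1, a mesenchymal bHLH gene, also gained (1.11 ± 0.33, adjusted p = 0.0237), with R1 well above R2 at 48 h. Of the 5 gains, DESeq2 called 4. Neurod1 itself is the fifth, with the values given above for its locus. At 12 h 3 of the 10 had gained (Neurod1, Neurod4 and Nhlh1), where 2.40% of all promoter peaks gained. Between 12 h and 48 h 4 gained and Neurod1 lost (-0.72 ± 0.20, adjusted p = 0.0149). Of all promoter peaks 27.4% gained and 2.61% lost in that comparison.

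Among BMP and SMAD genes, the usual inputs of the Id genes, 13 of 16 had a promoter peak, with a median log2 fold change of 0.12 at 48 h relative to 0 h. In that comparison 1 gained and 1 lost, and DESeq2 called only the loss. At 48 h relative to 0 h, Bmpr1b, a BMP receptor, gained (0.90 ± 0.28, adjusted p = 0.0319) and Bmp4, a BMP ligand, lost (-1.18 ± 0.28, adjusted p = 0.00509), from 81 and 110 (0 h), 88 and 101 (12 h) and 31 and 61 (48 h) reads. At 12 h, Smad1 (-0.97 ± 0.22, adjusted p = 0.00362) and Bmpr2 (-0.58 ± 0.20, adjusted p = 0.0479) had lost, or 2 of 13 where 17.0% of all promoter peaks lost, and DESeq2 called 1 of the 2. Between 12 h and 48 h 5 of the 13 gained, where 27.4% of all promoter peaks gained, and Bmp4 lost. Of 14 cofactors and corepressors of E proteins, 12 had a promoter peak, with a median of -0.06 at 48 h relative to 0 h. In that comparison 1 passed. At 12 h 1 gained and 1 lost (2.40% and 17.0% of all promoter peaks), and between 12 h and 48 h 3 gained and 1 lost (27.4% and 2.61%). Runx1t1, a corepressor of the ETO family, lost at 48 h relative to 0 h (-0.88 ± 0.27, adjusted p = 0.0302), a call that DESeq2 did not make. Its relative Cbfa2t2 rose at 12 h (0.68 ± 0.13, adjusted p = 0.000718) and fell back by 48 h (-0.78 ± 0.13, adjusted p = 0.00031). Ldb1, a LIM-domain-binding adaptor, fell at 12 h (-0.50 ± 0.14, adjusted p = 0.0155), which DESeq2 did not call, and gained between 12 h and 48 h (0.39 ± 0.14, adjusted p = 0.049). The medians of all promoter peaks were -0.38 and 0.44 in these comparisons. The genes of the coactivators Crebbp and Ep300 passed in no comparison.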

How the data were processed

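H3K27ac ChIP-seq of 6 libraries was used, 2 at each of 0 h, 12 h and 48 h, and the Input library was not used. Per the submitters' processing notes and the study's methods, the authors checked reads with FastQC, aligned them to mm10 with Bowtie2 in local mode and SAMtools 0.1.19, called peaks against Input with MACS2, joined the peak sets of all libraries into 1 set and counted reads in it with QuasR. The deposited values are raw read counts per merged peak. Peaks were linked to genes by the GENCODE annotation, and of the 54 peaks, 52 held at least 10 reads in at least 2 libraries.

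Differences were tested with edgeR 4.0.16 (R 4.3.3), the quasi-likelihood test in 1 model of all 6 libraries with time as a factor, library totals over merged peaks as offset and Benjamini-Hochberg adjustment over all 66841 peaks or 16175 gene sums at 0.05. The common biological coefficient of variation was 14.9% with 3 residual degrees of freedom, and the median peak held 30.5 reads, so intervals on low peaks are wide and cover counting error only. A floor of 3 reads per library stood in for peaks without reads. Alternatives were DESeq2 1.42.0, TMM factors, a count filter, a replicate block, only the 4 libraries compared, an offset for GC content, other gene windows and leaving out each library. The fits were tested on simulated data.

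The genes and gene lists were chosen with earlier results of these data known. The promoter peak of a gene is, among those overlapping the 2 kb around a TSS, the peak of the largest mean count. Full values are given for promoter peaks and for each peak called in a comparison, and the 2 genes with the highest Pearson's r to each of the 7 are named. Sequence windows left out of the text include 1 that is not reported here. The likeness of courses, the E-box counts and the levels per kb are descriptions without a test.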

Additional observations from a re-analysis of the deposited data

Results flagged for a closer look

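At 14 of the 54 peaks, H3K27ac differed between 12 h and 48 h of doxycycline by a direct test of these times (edgeR, adjusted p under 0.05), so that their change from 0 h depended on the time. The log2 fold changes from 12 h to 48 h at Tcf12 were 1.81 at the inner promoter, 1.92 at the intronic peak beside it and 0.99 at the 5′ promoter. At Tcf4 they were 0.57 at the 5′ promoter, 0.92 at the intronic peak that rose at both times, 1.57 at the inner promoter and -1.29 at the intronic peak in the 3′ part, the only fall among the 14. At Tcf3 they were 0.76 at the promoter, 1.13 at the gained intronic peak and 0.62 at the peak on the TSS of Uqcr11. At the Id genes they were 0.78 at the promoter of Id1, 0.72 at that of Id2, 1.30 at the distal upstream peak of Id3 and 1.32 at the upstream promoter peak of Id4. All promoters together had a median of 0.44 in this comparison, and promoters were among 8 of the 13 gains.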

How the results depend on the processing

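The count of called peaks at 12 h relative to 0 h, 9 in the reported fit, was 3 with DESeq2 and 15 with only the 4 libraries compared, and 0 to 16 with 1 library left out. At 48 h relative to 0 h it was 16, with DESeq2 8, and 7 to 25 with 1 library left out. Between 12 h and 48 h it was 14, and 3 to 25 with 1 library left out. In fits without a library the lone sample of that time is assumed to vary like the others. With the replicate block the counts of gains and losses were 7 and 3, 18 and 2, and 13 and 2 in the 3 comparisons. Samples with the same number share only that number (correlations of their deviations from -0.0496 to 0.078). TMM factors, the count filter, the GC offset and the other gene windows kept each count within 1.5 times its reported value, but with the GC offset 4 of the 9 calls at 12 h were still made (not those of the Tcf12 peak 46.2 kb into the gene, the small Tcf4 peak and the 3 Tcf3 peaks). No called peak changed direction under an alternative. For summed peaks at 12 h relative to 0 h, Tcf3 (-0.36) gave -0.29 with TMM factors, -0.0752 with DESeq2 and -0.15 with the GC offset, no longer called. Id2 (0.20) gave 0.49 with DESeq2, 0.20 with 4 libraries and 0.31 with the GC offset, then called. Uncalled values changed sign for Tcf12 with DESeq2 (0.22) and Tcf4 with the GC offset (-0.10). With the GC offset, Id3 (0.64) and Id4 (0.49) were called at 48 h relative to 0 h. Between 12 h and 48 h, DESeq2 gave 0.35 for Tcf12, 0.24 for Tcf4, 0.0812 for Tcf3 and 0.33 for Id2, none called, and -0.28 for Id1 and -0.0051 for Id4, with changed sign. The GC offset gave -0.0583 for Id1 and, then called, 0.35 for Id4. With 1 library left out, summed log2 fold changes ranged at 12 h for Tcf4 -0.0306 to 0.0322, Tcf3 -0.42 to -0.30, Id1 -0.12 to 0.14, Id2 0.16 to 0.25, Id3 -0.10 to 0.40, at 48 h relative to 0 h for Tcf12 0.48 to 0.70, Tcf4 0.45 to 0.63, Tcf3 -0.0216 to 0.073, Id1 -0.20 to 0.26, Id2 0.60 to 1.06, Id3 0.0546 to 0.89, Id4 0.43 to 0.52, and between 12 h and 48 h for Tcf12 0.55 to 0.76, Tcf4 0.45 to 0.63, Tcf3 0.32 to 0.45, Id1 -0.21 to 0.25, Id2 0.40 to 0.85, Id3 -0.13 to 0.71. Uncalled promoter peaks that changed sign were Tcf12 at 12 h with the GC offset (0.0578) and, with 1 library left out, Id4 at 12 h (-0.0985 to 0.58) and Id3 at 12 h (-0.01 to 0.40), at 48 h relative to 0 h (-0.26 to 0.35) and between 12 h and 48 h (-0.48 to 0.13). The causes were not tested. With 2 libraries a time and a median of 30.5 reads a peak, small differences at low peaks were not detectable.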
